A study of Mus musculus with 20 samples.

Results

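Non-dividing pigment melanocytes were examined in dorsal skin of mice whose hair follicles were in anagen, when hair grows. A cell was counted as one when Pmel, Dct, Tyrp1 and Mlana together gave at least 30 of every 10,000 of its UMIs (unique molecular identifiers, one per captured RNA molecule). It also had to carry under 50 UMIs of Krt14 and Krt5 per 10,000, which sets keratinocytes aside, and at most 1 UMI of the division genes Mki67 and Top2a. Barcodes with fewer than 500 genes, or with over 15% of their UMIs from mitochondrial genes, were set aside first. The rule selected 3076 cells out of 25611 kept cells and 30384 barcodes. The 1444 control members held 17986319 UMIs and the 1632 Fgf5-/- members held 18817849.

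The control mice were Nfatc1-CreER;R26R;mTmG and received tamoxifen for 3 days, starting at postnatal day 21 or 22. The mutant mice were Nfatc1-CreER;R26R;mTmG;Fgf5-/- and received tamoxifen for 3 days, starting at postnatal day 23 or 24. Both groups therefore carry the tamoxifen-inducible Cre under Nfatc1 and the reporter alleles R26R and mTmG. The start of treatment differs between them along with the genotype, and the effects of the 2 cannot be told apart. Labels name 4 control and 16 mutant samples, but cells arrived as 1 pooled matrix per group and could not be assigned to samples. Every difference between genotypes below is a difference between 2 libraries with no replicate check. No p-value is given, and intervals cover counting error only.

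Melanocytes of the growing follicle sit above the dermal papilla and hand melanin granules to the keratinocytes that build the hair. Mitf is the transcription factor that drives most of the pigment programme, Mc1r is the receptor that raises cAMP in answer to melanocortin, and Tyr, Tyrp1 and Dct are the enzymes of the melanin pathway. Kit and Ednrb are receptors that melanocytes need for survival and migration. Fgf5 is a secreted factor made in the follicle that ends hair growth, and its loss gives long hair.

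Short stretches upstream of 4 pigment genes are shown because Mitf binds the hexamer CATGTG and its level differed between the libraries. They are the 250 bases before the transcription start in the RefSeq promoter table (GRCm38.p6), read 5′ to 3′ on the strand of the gene. Capitals mark CATGTG or its reverse complement CACATG.

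Tyr (chr7:87493513-87493762, minus strand): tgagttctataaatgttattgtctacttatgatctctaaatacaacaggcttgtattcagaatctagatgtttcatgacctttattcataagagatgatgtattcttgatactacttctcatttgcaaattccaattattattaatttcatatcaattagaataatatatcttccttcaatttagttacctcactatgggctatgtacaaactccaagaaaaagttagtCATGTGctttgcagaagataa
Dct (chr14:118052247-118052496, minus strand): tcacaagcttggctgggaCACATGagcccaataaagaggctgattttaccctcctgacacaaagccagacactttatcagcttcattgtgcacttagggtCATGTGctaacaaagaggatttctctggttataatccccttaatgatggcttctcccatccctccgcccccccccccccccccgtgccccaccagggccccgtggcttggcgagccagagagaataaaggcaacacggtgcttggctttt
Oca2 (chr7:56239509-56239758, plus strand): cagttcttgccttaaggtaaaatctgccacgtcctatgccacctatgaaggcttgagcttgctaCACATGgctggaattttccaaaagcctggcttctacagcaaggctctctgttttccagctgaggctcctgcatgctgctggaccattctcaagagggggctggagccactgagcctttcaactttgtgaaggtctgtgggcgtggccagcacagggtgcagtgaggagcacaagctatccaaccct
Mc1r (chr8:123406832-123407081, plus strand): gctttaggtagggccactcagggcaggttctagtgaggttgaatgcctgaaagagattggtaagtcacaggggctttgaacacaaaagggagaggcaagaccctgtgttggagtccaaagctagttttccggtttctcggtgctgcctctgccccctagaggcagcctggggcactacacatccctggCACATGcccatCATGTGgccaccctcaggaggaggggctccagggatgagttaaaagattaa

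The match of Tyr begins 21 bases before the start site, those of Mc1r at 62 and 51 bases and that of Oca2 at 186 bases. Dct holds 2 matches, at 232 and 150 bases. Of all 32851 windows of this length in the table, 4025 (12.3%) hold the hexamer on either strand. Among windows of the 4 rule genes and the melanin list, 8 of 17 (47.1%) hold it, and 16 of the 21 genes were in the table. These 4 genes were picked for print after their matches were seen. The search had covered 31 genes, of which 20 were in the table with 23 windows, and 4 motifs. CATGTG was found in 7 of those 23 windows, CACGTG in 1 (6.02% of all windows), CCAAT in 15 (33.8% of all windows) and a sterol regulatory element, a decamer, in 0 (0.0731% of all windows). A match is a description of the letters and not a binding site.

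The members made up 10.2% of kept control cells (1444 of 14156, exact 95% interval 9.71% to 10.7%) and 14.2% of kept Fgf5-/- cells (1632 of 11455, 13.6% to 14.9%). The log2 ratio of the shares was 0.48 (0.38 to 0.59). T cells, counted by 3 or more UMIs of Cd3d, Cd3e and Cd3g, numbered 2801 in control and 1057 in mutant, so the share also moves with how many other cells were captured. The part of cell capture in the share was not tested. Dividing pigment cells, with 2 or more UMIs of Mki67 and Top2a, were 174 of 1618 control pigment cells without the keratin signal (10.8%, 9.29% to 12.4%) and 167 of 1799 mutant ones (9.28%, 7.98% to 10.7%), intervals that overlap. A limit set in UMIs is reached more easily by deeper cells. Median totals were 21253 control and 20567 mutant UMIs in dividing cells, and 13299 and 12376.5 in members. The part of depth in this split was not tested.

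**Figure D1:**
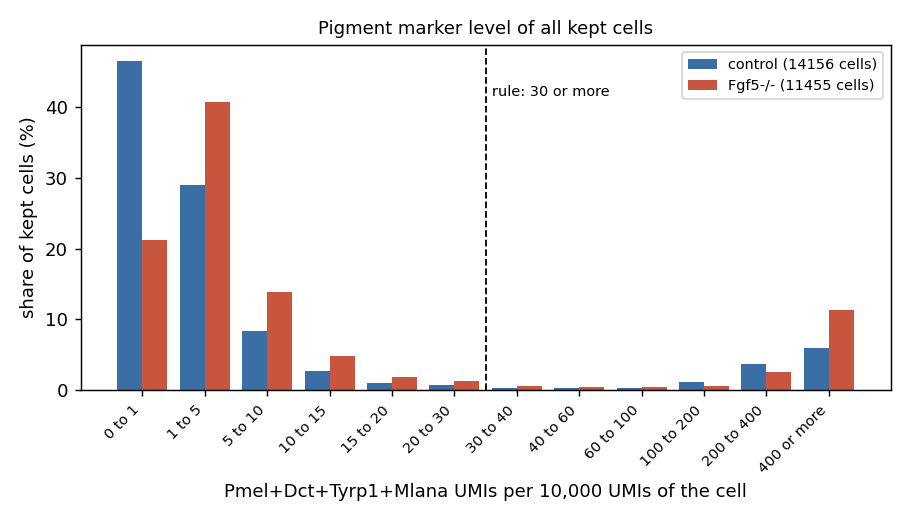
Share of kept cells (y axis, %) by the UMIs of Pmel, Dct, Tyrp1 and Mlana per 10,000 UMIs of the cell (x axis, ranges of unequal width), control in blue and Fgf5-/- in red. Few cells lie between 20 and 100, and most cells past the limit of 30 (dashed line) lie at 200 or more.

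The limit of 30 falls in a thinly filled range. Between 20 and 30 there were 106 control and 158 mutant cells, with median totals of 1361 and 1622 UMIs. Between 30 and 40 there were 42 and 75 cells, of which 32 and 65 were members. The median pigment level of members was 415 per 10,000 UMIs in control and 498 in mutant. This level is the quantity the rule used, and is given as a description.

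Melanocyte markers that the rule did not use were present in both libraries. The 10 markers Mitf, Sox10, Tyr, Mc1r, Kit, Ednrb, Slc45a2, Oca2, Gpr143 and Trpm1 together gave 9865 CPM (UMIs of the genes per 1000000 UMIs of the set) in control members and 10038 CPM in mutant members. In the other kept cells of those libraries they gave 316 and 504 CPM. Other kept cells are here all kept cells that are not members. They include 341 dividing pigment cells and 95 pigment cells with the keratin signal, over both libraries. Defining markers of related cells were near 0: Sox2 had 7 UMIs in control members and 6 in mutant members, and Ngfr 6 and 6. Of 9 Schwann cell markers, 7 were at lower levels in members than in other kept cells, in each library. These values match the label of melanocyte.

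Apart from the 8 genes of the rule, the genes that set members furthest above all other kept cells in both libraries were Ptgds, Oca2, Tspan10, Gpr143, Atp6v0d2, Trpm1, Slc24a4, Npy, Ppargc1a, Syt4, Cck, Cthrc1, Tyr, Ednrb and Slc45a2. A ratio was called large here when it reached 2-fold, when the nearer end of its counting interval passed 1.5-fold, and when the higher set had at least 100 CPM. Of 1704 genes compared, 391 (22.9%) were large and higher in members in both libraries. Oca2, a melanosomal transporter, was at 420 CPM in control members against 11.5 CPM in other control cells, and at 680 against 29.0 CPM in the mutant. The dividing pigment cells among those other cells had 276 CPM in control and 462 CPM in the mutant. Ptgds, which makes prostaglandin D2, was above other cells by 5.11 log2 units in control and 4.63 in mutant. Members were selected from these cells by their own expression, so these contrasts describe the selection and are not a test.

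Against dividing pigment cells, 0 of 1474 genes (0%) were higher by a large ratio in both libraries, and 53 (3.60%) were lower. The lowest ones were genes of mitosis and DNA replication: Prc1, which bundles spindle microtubules, was at 4.78 CPM in control members and 121 CPM in dividing cells, and at 4.41 and 183 CPM in the mutant. Ube2c, Cdk1, Pclaf, Birc5, Cdca8, Cenpf, Hist1h1b, Cdca3 and Ccnb1 followed. Mki67 and Top2a define these sets, so this too is a description. Pigment genes were close in both: Tyr was above dividing cells by 0.39 log2 units in control and 0.29 in mutant, and Trpm1, a melanocyte ion channel, by 0.47 and 0.44.

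Between genotypes, 20 of 1635 compared genes (1.22%) were higher in mutant members by a large ratio, and 37 (2.26%) were lower, 3.49% in all. In dividing pigment cells of the same libraries 1.59% of compared genes were higher and 2.88% lower, and in all other kept cells 3.77% and 2.96%. With TMM scaling, which shifts all ratios upward by 0.15 log2 units, these counts became 36 higher and 28 lower, and with DESeq2 size factors 32 and 29. The median over all compared genes was -0.08. The same sign was seen in dividing pigment cells for 19 of the 20 higher and 32 of the 37 lower genes. In all other kept cells it was seen for 18 and 37. Ratios were also large in dividing cells for 13 and 19 of them, and in all other kept cells for 5 and 7. How far the differences are particular to members was not tested. All other kept cells include dividing pigment cells. The 4 pigment genes of the rule together gave 1325 CPM there in control and 2435 CPM in mutant. The part of pigment cell RNA in the ratios of other kept cells was not tested. Of the 20 higher genes, 6 had lower levels in the members than in the other kept cells of the same library, as did 10 of the 37 lower genes in control. For these genes the part of free RNA from other cells was not tested, and those of them described below are given with both levels. The 4 haemoglobin genes, also lower by a large ratio, are not among those 10. Together they gave 6319 CPM in control members and 6171 CPM in other kept control cells. The part of free RNA in them was not tested either. A list's genes are described from 10 CPM, but only those at 100 CPM or more could be called large.

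Mitf (chr6:97807052-98021349, GRCm38) was lower in mutant members. Its level was 255 CPM in control members and 94.0 CPM in mutant members, a log2 ratio of -1.44 (-1.52 to -1.36). A Mitf UMI was seen in 65.0% of control members and 40.6% of mutant members, against 1.18% and 1.32% of T cells, which should lack it. After each cell was thinned to 1500 UMIs the shares were 27.6% of control members and 10.1% of mutant members. Dividing pigment cells of the same libraries had 278 and 111 CPM. Tfeb, a relative of Mitf that controls lysosome genes, was at 178 and 87.8 CPM. The log2 ratio of Tfeb was -1.02, near the limit, and it was no longer large under 6 of 21 alternatives. Other melanocyte factors had ratios on both sides of 0: Sox10 was at 106 and 162 CPM, Pax3 at 193 and 232 CPM, Irf4 at 102 and 126 CPM, and Bhlhe40 at 299 and 206 CPM. Of 8 melanocyte transcription factors at 100 CPM or more, 0 were higher and 2 were lower by a large ratio, against 1.22% and 2.26% of all compared genes. Over the 23 factors at 10 CPM or more, 12 ratios were above 0 and 11 below, with a median of 0.09. Of these 23 factors, 11 were at lower levels in members than in other kept cells.

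The receptor Mc1r (chr8:123407107-123410744) was at 331 CPM in control members and 117 CPM in mutant members, a log2 ratio of -1.50 (-1.57 to -1.43). Its UMIs were seen in 76.5% of control and 54.7% of mutant members, and in 1.82% and 1.80% of T cells. Dividing pigment cells had 202 and 71.8 CPM. Kit, at 202 and 214 CPM, and Ednrb, at 1475 and 1370 CPM, had log2 ratios of 0.09 and -0.11. Of the 5 receptors at 100 CPM or more, 1, Mc1r, had a large ratio, and the median over 17 receptors at 10 CPM or more was 0.15. Of these 17, 10 were at lower levels in members than in other kept cells. Downstream of the receptor, Gnas, which encodes the stimulatory G protein, was at 1661 and 1653 CPM. Ppargc1a, a coactivator of mitochondrial genes that answers to cAMP, was at 409 CPM in control and 873 CPM in mutant, a log2 ratio of 1.09 (1.05 to 1.13). In all other kept cells Ppargc1a was at 14.6 and 41.6 CPM, a log2 ratio of 1.51. Of the 5 genes of the cAMP list at 100 CPM or more, 1, Ppargc1a, had a large ratio, and the median over 15 genes at 10 CPM or more was 0.32.

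The melanin genes themselves had no large ratio. Of 14 enzymes and melanosome proteins at 100 CPM or more, 0 were higher or lower by a large ratio. Over the 16 at 10 CPM or more, 7 ratios were above 0 and 9 below, and the median was -0.10. Tyr, which catalyses the first step of melanin synthesis, was at 1516 CPM in control and 1338 CPM in mutant. Oca2 was at 420 and 680 CPM and Slc45a2, a transporter of melanosomes, at 1144 and 766 CPM. Among the rule genes, Dct was at 11490 and 17805 CPM, Tyrp1 at 5141 and 6623 CPM, Pmel at 12272 and 13662 CPM and Mlana at 13572 and 11566 CPM. The genes of melanosome transport held 0 large ratios among the 11 at 100 CPM or more, and their median over 26 genes at 10 CPM or more was 0.06. Rab38, which sorts cargo to melanosomes, had the values 1335 and 724 CPM, and Myo5a, the motor that carries melanosomes, 472 and 684 CPM.

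**Figure D2:**
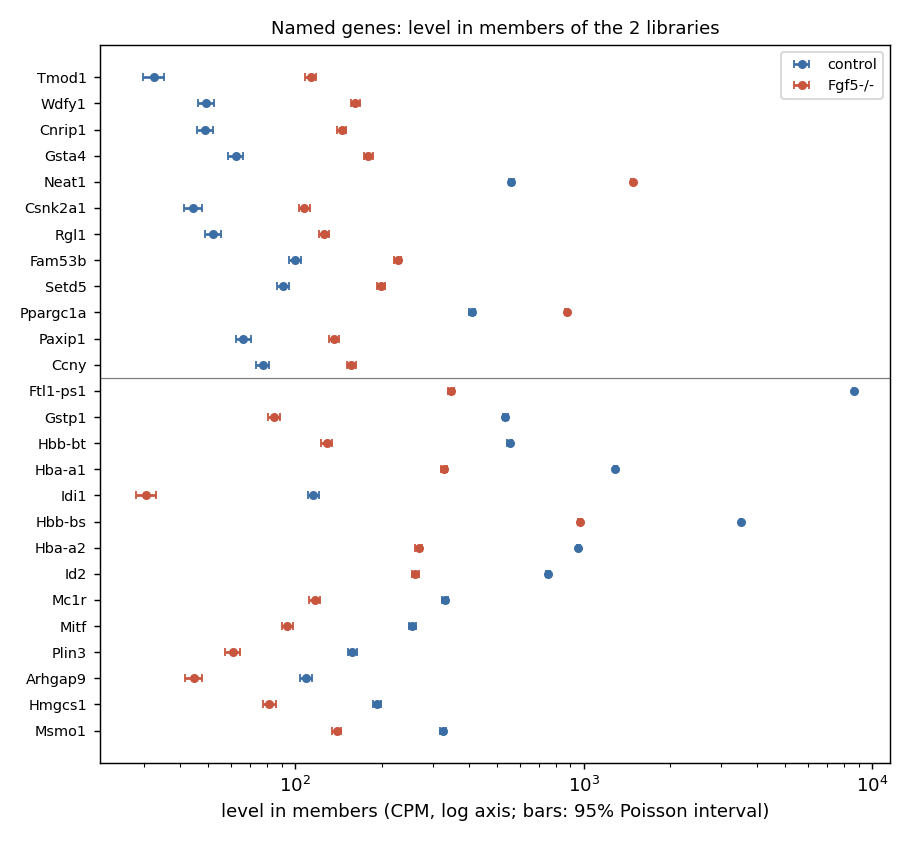
Level in members of the control (blue) and Fgf5-/- (red) libraries for the genes named by size of ratio (x axis, CPM on a log axis, with 95% Poisson intervals). Genes above the grey line were higher in the mutant, and those below were lower, from Tmod1 at 32.3 and 113 CPM to Ftl1-ps1 at 8648 and 347 CPM.

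Cholesterol synthesis was the list with the most genes lower by a large ratio. Of its 12 genes at 100 CPM or more, 4 were large and lower and 0 large and higher, against 2.26% and 1.22% of all compared genes. Over its 24 genes at 10 CPM or more, 20 ratios were below 0 and the median was -0.68, beside -0.09 for all genes at that level. Idi1, which isomerises isopentenyl diphosphate, was at 115 CPM in control and 30.4 CPM in mutant, a log2 ratio of -1.92 (-2.06 to -1.79) that was -1.33 with each cell thinned to 1500 UMIs. Hmgcs1 was at 192 and 81.5 CPM and Msmo1 at 326 and 139 CPM. Fdps, the farnesyl diphosphate synthase, was at 486 and 365 CPM, and Hsd17b7 was at 73.3 and 108 CPM. In other kept cells, the log2 ratio was -0.59 for Idi1, -0.53 for Hmgcs1 and -0.40 for Msmo1. The difference between members and other cells was not tested.

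The targets of BMP signalling had ratios below 0 in all 8 genes at 10 CPM or more, with a median of -1.18, and 6 of the 8 were at lower levels than in other kept cells. The 2 of them at 100 CPM or more, Id2 and Id3, were both large and lower, against 2.26% of all compared genes. Id2, an inhibitor of basic helix-loop-helix factors, was at 752 CPM in control and 261 CPM in mutant members. Id3, a related inhibitor, was at 597 and 144 CPM in members and at 1836 and 996 CPM in other cells. Wnt and Notch targets had a median of -0.70 over 12 genes, and 7 of the 12 were at lower levels than in other kept cells. Of the 3 at 100 CPM or more, 1 had a large ratio. It was Nkd1, a Wnt inhibitor, at 185 and 92.3 CPM, whose ratio was no longer large under 8 of 21 alternatives. All 26 immediate early genes at 10 CPM or more were at lower levels in members than in other cells, and of the 10 at 100 CPM or more 0 had a large ratio. Of the 26 ratios between genotypes, 22 were below 0 and 4 above, with a median of -0.54.

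Glutathione and redox genes held ratios in opposite directions. Gstp1, a glutathione transferase, was at 536 CPM in control members and 84.6 CPM in mutant members, a log2 ratio of -2.66 (-2.74 to -2.59). The same ratio in other kept cells was -2.41. Gstp1 and Gstp2 are near-identical and were also summed, giving 556 and 86.5 CPM. Gsta4, another transferase, was at 62.2 and 180 CPM in members and at 15.5 and 13.2 CPM in other cells. Of 20 genes of the list at 100 CPM or more, 1 was higher and 1 lower by a large ratio, and the median over 30 genes at 10 CPM or more was -0.18. Ftl1-ps1, a near-identical copy of the ferritin light chain gene Ftl1, was at 8648 and 347 CPM while Ftl1 was at 7413 and 12047 CPM. The assignment of reads between those 2 genes is uncertain, and their sum was 16061 and 12394 CPM, a log2 ratio of -0.37.

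Mitochondrially encoded genes were higher in mutant members for 10 of 13, with a median of 0.63. The mitochondrial share of UMIs was 4.94% in control members and 7.83% in mutant members as a median, and 3.22% and 4.95% in all kept cells. mt-Nd3 was at 654 and 1388 CPM while mt-Nd4l was at 633 and 297 CPM, so the 2 respiratory chain genes with large ratios went opposite ways. Of the 43 nuclear respiratory chain genes at 100 CPM or more, 0 had a large ratio, and the median over 44 at 10 CPM or more was -0.13. With the mitochondrial UMIs left out of the total, 26 genes were higher and 34 lower.

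**Figure D3:**
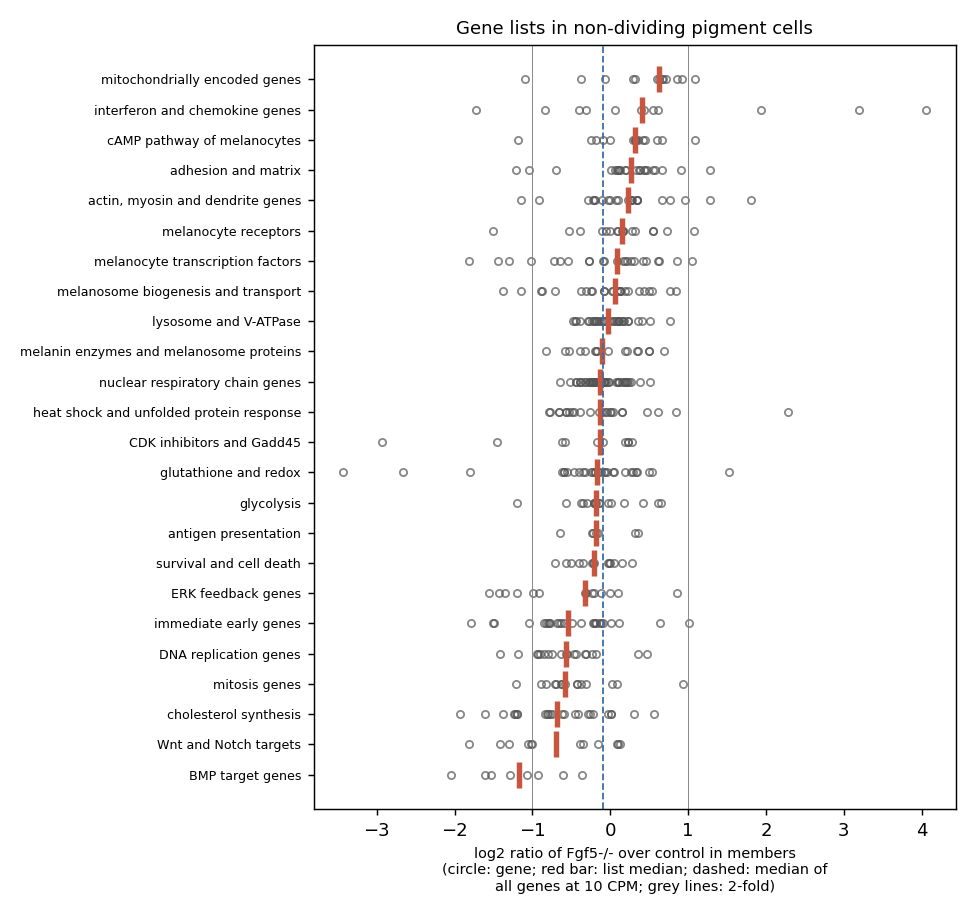
log2 ratio of Fgf5-/- over control in members (x axis) for each gene at 10 CPM or more (circles) in 24 lists, with the list median (red bar), the median of all 7627 genes at that level (dashed line, -0.09) and 2-fold limits (grey lines). BMP targets, Wnt and Notch targets and cholesterol synthesis have the lowest medians, and mitochondrially encoded genes the highest. Of the BMP targets 6 of 8, and of the Wnt and Notch targets 7 of 12, were at lower levels in members than in other kept cells.

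Among the remaining genes with large ratios, Tmod1, which caps actin filaments, was at 32.3 CPM in control and 113 CPM in mutant. Neat1, a nuclear long noncoding RNA, was at 562 and 1479 CPM in members and at 344 and 1060 CPM in other kept cells. Wdfy1, Cnrip1, Csnk2a1, Rgl1, Fam53b and Setd5 were higher by log2 ratios between 1.72 for Wdfy1 and 1.13 for Setd5. In all other kept cells the ratios were, in the same order, 1.86, 0.66, 1.08, 0.69, 0.57 and 1.07. Paxip1 and Ccny, at 1.04 and 1.02 in members, lie at the limit and lost the call under 5 and 4 of 21 alternatives. Plin3, a lipid droplet protein, was at 158 and 60.7 CPM, and Arhgap9, a GTPase activator, at 109 and 44.6 CPM. Eno1, a glycolytic enzyme, was at 287 and 125 CPM in members and at 107 and 52.2 CPM in other cells. Gadd45g, a stress-response gene, was at 221 and 28.9 CPM in members and at 305 and 97.9 CPM in other cells. Myh9, the heavy chain of nonmuscle myosin, was at 63.3 and 154 CPM in members and at 116 and 254 CPM in other cells. No FGF ligand of the 10 listed reached 10 CPM in members: Fgf5 gave 15 UMIs in control and 9 in mutant members. In other kept cells Fgf5 was at 13.7 and 11.1 CPM. Which bases the allele removes is not given in the sources used here, so a 3′ tag may lie outside them and this does not check the labels. eGFP, which mTmG makes after recombination, was at 185 and 331 CPM in members and at 822 and 929 CPM in other kept cells.

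**Figure D4:**
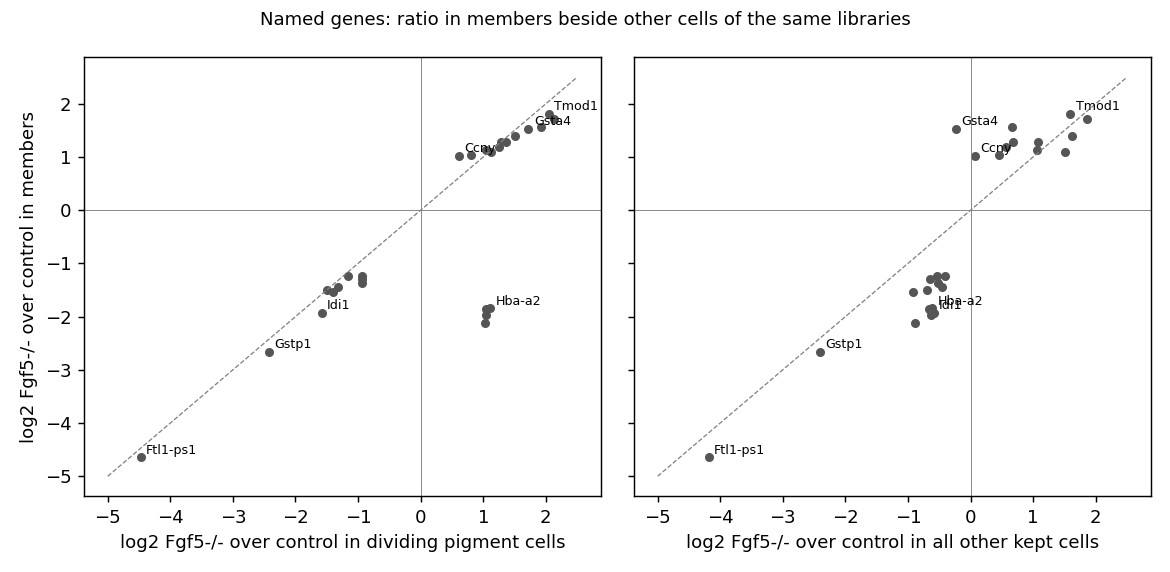
log2 ratio of Fgf5-/- over control in members (y axis) against the same ratio in dividing pigment cells (left) and in all other kept cells (right) for the genes named by size of ratio; the dashed line marks equal ratios. The haemoglobin genes lie at the lower right of the left panel, and Gsta4 differs in sign on the right. All 3 sets come from the same 2 libraries, and the dividing pigment cells are also among all other kept cells.

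Haemoglobin RNA is carried by red cells and not by melanocytes, and it was unevenly spread over members. The 4 genes Hba-a1, Hba-a2, Hbb-bs and Hbb-bt together gave 6319 CPM in control members and 1696 CPM in mutant members. The 10 members with most of it held 43.9% of the haemoglobin UMIs in control and 88.9% in mutant. Members with at least 20 such UMIs per 10,000 numbered 221 in control and 52 in mutant, and their median totals were 1303 and 1185 UMIs. Tchh, a protein of the inner root sheath, was at 108 and 372 CPM in members and at 1424 and 718 CPM in other cells, and the 10 cells with most of it held 82.6% and 97.1% of its UMIs. The part of red cell and sheath RNA in the ratios was not tested, but with members at 20 or more haemoglobin UMIs per 10,000 left out, 22 genes were higher and 36 lower, and the ratio of Hba-a1 went from -1.97 to -1.05. At a pigment minimum of 100 the ratio of Hba-a1 was -2.66.

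Members were also ordered by pigment level and split into terciles at 386 and 520 UMIs per 10,000, ranges of a score and not types. The lower tercile held 624 control and 401 mutant cells, the upper tercile 324 and 702. Cells of the lower tercile were shallow in the mutant, with a median of 2246 UMIs against 5926 in control. Large ratios of upper over lower tercile in both libraries were found for 6 higher genes of 1455 (0.412%) and 49 lower genes (3.37%). The 6 higher genes were Cthrc1, C2, Ednrb, Oca2, Fam53b and Selenop. The leading lower genes belonged to other cells: haemoglobin genes, the collagens Col1a1 and Col1a2, Dcn, Krtdap, Sbsn and Tchh. Markers of other cell types gave medians of 25.1 UMIs per 10,000 in the lower and 5.65 in the upper control tercile. In the mutant these medians were 14.7 and 2.52. The score is made of the 4 pigment genes of the rule, so the contrast of terciles is a description and not a test.

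Npy, a neuropeptide, was at 2173 CPM in control members and 1030 CPM in mutant members. In control it was lower in the upper than in the lower tercile with a log2 ratio of -1.52, against -0.16 in the mutant. Its ratio between genotypes was -1.78 in the lower tercile, -0.37 in the middle tercile and -0.41 in the upper tercile. Mitf was lower in the mutant in each tercile, by ratios of -1.15, -1.49 and -1.34, and Mc1r by -1.89, -1.34 and -1.26. With the mutant members weighted to the control mix of pigment level, 29 genes were higher and 34 lower.

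**Figure D5:**
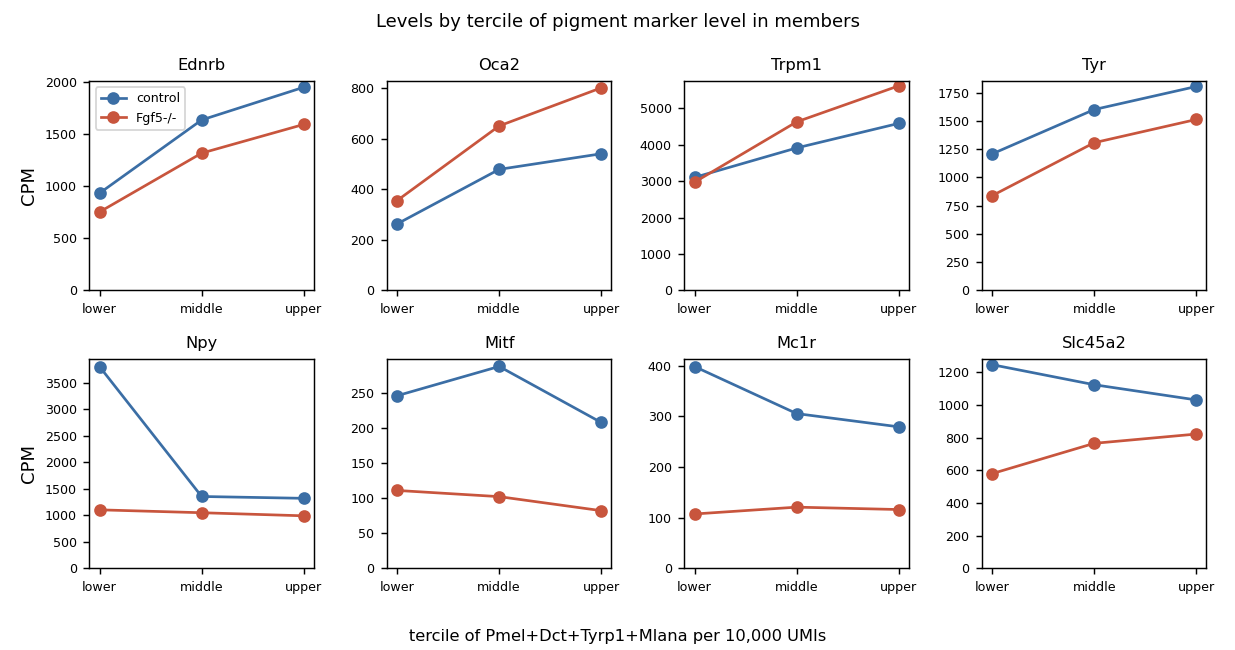
Level (y axis, CPM) of 8 pigment cell genes by tercile of pigment level (x axis) in control (blue) and Fgf5-/- (red) members. Ednrb and Oca2 climb with the score in both libraries, Mitf and Mc1r stay apart in every tercile, and Npy is highest in the lower tercile of control.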

How the data were processed

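Cells came from dorsal skin of control and Fgf5-/- mice and were captured with 10x Genomics 3′ v3 chemistry, per the labels' protocols. The deposited matrices hold UMI counts per gene and barcode, not normalised, in 1 pooled matrix per group. Per the submitters' processing notes, Cell Ranger 3.0.2 and Seurat 3.0.0 and 3.1.0 were used on GRCm38 (mm10). The lowest total was 500 UMIs in both libraries. Library totals were 140880809 UMIs over 16973 control barcodes and 97817173 over 13411 mutant barcodes. The libraries share 59 barcodes, 39 among kept cells and 0 among members.

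Counts of members were summed per library and expressed as CPM of that sum. Ratios have exact conditional 95% intervals, levels Poisson intervals and shares Clopper-Pearson intervals. List medians add a prior count of 0.5. Genes were named as the 12 higher and 15 lower of largest ratio without those of possible free RNA, mitochondrial or ribosomal genes, plus the list members with large ratios or highest levels, and the leading genes against dividing cells, other cells and terciles of pigment level. Some named genes are not reported here. Members and lists were chosen with earlier results of these data known. No sample could be separated, so no count test was run as a main result. edgeR 4.0.16 and DESeq2 1.42.0 gave scaling factors only. Doublets were not removed in the rule. The planned Scrublet alternative (scanpy 1.11.5) was first run at its default expected rate of 0.05, which called 0 of 14156 control and 412 mutant cells (3.60%). The rate of 0.1 was then chosen, after these calls were seen, and called 466 control (3.29%) and 453 mutant cells (3.95%), of which 104 and 123 were members. The contrast code was run on simulated Poisson counts, the model that its intervals assume. That run checks the code only, and not the spread between cells or mice. Of 31055 gene IDs, 30934 matched GENCODE vM21.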

Additional observations from a re-analysis of the deposited data

Results flagged for a closer look

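Haemoglobin genes moved in opposite directions in members and in dividing pigment cells, and the difference was not tested. The log2 ratio of Fgf5-/- over control was -1.97 in members and 1.04 in dividing cells for Hba-a1, -1.84 and 1.11 for Hba-a2, -1.86 and 1.04 for Hbb-bs, and -2.11 and 1.02 for Hbb-bt. Tchh, a gene of the inner root sheath, went the other way, at 1.78 in members and -1.87 in dividing cells, also untested.

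Barcodes removed by the limits on genes and mitochondrial UMIs held signal outside the comparisons. Of 1956 removed mutant barcodes, 538 (27.5%, exact 95% interval 25.5% to 29.5%) met the pigment, keratin and division limits, against 486 of 2817 control barcodes (17.3%, 15.9% to 18.7%). Too few genes removed 369 of the 538 mutant barcodes and 385 of the 486 control ones, whatever their mitochondrial share. The remaining 169 mutant and 101 control barcodes had enough genes and were removed by the mitochondrial limit alone. The median mitochondrial share of the barcodes meeting the rule was 16.2% in mutant, above that limit, and 4.70% in control. The 169 therefore understate how many mutant barcodes exceeded the mitochondrial limit.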

How the results depend on the processing

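No paired analysis was possible because each group was deposited as 1 pooled matrix, which also prevents leaving out replicates. The log2 ratio of the member share, 0.48, was 0.37 at a mitochondrial limit of 10% and 0.84 without members that carry markers of other types. In an alternative added after seeing the data, it was 0.67 without members at 20 or more haemoglobin UMIs per 10,000. These filters on members left the total of kept cells unchanged. Genes higher by a large ratio numbered 36 with TMM, 32 with DESeq2 factors, 36 at 50 CPM and 7 at 200 CPM. Genes lower numbered 81 at 50 CPM and 20 at 200 CPM. Genes large against dividing cells went from 53 to 111 at 50 CPM and 24 at 200 CPM, and those higher than in other cells from 391 to 645 and 190. Genes large between terciles of pigment level, 55 in both directions, numbered 28 at a pigment minimum of 100, 98 at 50 CPM, 22 at 200 CPM and 33 without Scrublet calls. Scrublet at its default rate of 0.05, run first, gave 48, but it had called no control cell. The choice of the rate of 0.1 thus decides whether that count moves by over 1.5 times. The 37 genes whose ratios were followed, higher and lower ones together, were picked for large ratios in these same libraries. Under all 21 alternatives they kept their sign (35 of them where mitochondrial genes were left out). A change of sign was unlikely from the start, so this is a description. The median of the melanin list was above 0 in 2 of 21 alternatives. The 4 haemoglobin ratios lay between -0.95 and -1.05 with those haemoglobin-bearing members left out. Genes under 100 CPM and rare cells are limited by depth.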
